A study of Sus scrofa with 36 samples.

Results

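Presomitic mesoderm (PSM) is the unsegmented trunk tissue from which somites, the blocks that later give vertebrae, trunk muscle and dermis, form one after another. The step from primitive streak to PSM was followed here in cultured pig cells by bulk RNA-seq. The members are 3 libraries labelled PSM on day 2 and 3 libraries labelled primitive streak or mesendoderm on day 1, chosen by these labels and not by any measured value. They are 6 of the 36 libraries of the series.

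Every library of the comparison came from clone 8, 1 clonal line of pig induced pluripotent stem cells (transgene-free, by the title of the study). The day 2 cells had been brought to PSM in a medium named S1LDN. The day 1 cells had been brought to the streak stage with E8A100ch3. Cells of day 0 (undifferentiated, with the mouse embryonic fibroblast feeder removed) and of day 3 (somite, medium S2LDN), with 3 libraries each, give the days on either side. The medium changed with the day, so day and medium cannot be told apart. No label says whether the libraries of a day came from separate cultures, and p-values here therefore reflect differences among libraries that could be technical. A single clonal line was used, so the spread holds no variation between lines.

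In the embryo, cells of the primitive streak move inward under Wnt, FGF and Nodal signals and either join the endoderm or become mesoderm. Those bound for the trunk give up streak genes and switch on TBX6 and MSGN1, the transcription factors that set the paraxial fate. PSM cells then run the segmentation clock, an oscillation of Notch-linked genes such as HES7 and LFNG, and are kept immature by FGF and Wnt until retinoic acid made by the somites meets them. HOX genes are switched on in the order in which they lie along their clusters, and this order sets position along the trunk.

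The day 2 libraries held 5086511, 5073491 and 8490476 estimated counts (replicates 1 to 3) and the day 1 libraries 8115007, 6725864 and 7676848. Of 20683 genes in the table, 13059 passed the filter on low counts. Replicate 1 stood apart on both days: against its 2 companions, its log2 level was lower in the shortest of 4 equal bins of genes by length (median -0.23 on day 2 and -0.31 on day 1) and higher in the longest bin (0.27 on day 2 and 0.34 on day 1). Without day 1 replicate 1, 8 of the genes named here that did not pass were called higher: DLL3, NOTCH1, ACVR2B, AXIN2, FGFR1, SPRY4, ETV4 and FN1. Levels are given per library in TPM, a unit of relative transcript abundance that is scaled for transcript length. Fold changes are log2 values of day 2 over day 1 with their standard error (SE), and a gene is called where its Benjamini-Hochberg adjusted p, from edgeR's quasi-likelihood test on the 12 libraries of days 0 to 3, is under 0.05.

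HOX genes were among the genes with the largest increases on day 2, and Nodal, FGF and Wnt pathway genes among those with the largest decreases. Of 13059 genes tested, 1615 (12.4%) were higher on day 2 and 1714 (13.1%) were lower, 3329 (25.5%) in all. By at least 2-fold, 974 of these (7.46% of genes tested) were higher and 787 (6.03%) lower. The median log2 fold change of all genes tested was -0.03. The shares of 12.4% higher and 13.1% lower are the background for the count of every gene list below. In the fit on the 6 libraries alone, 1140 genes were higher and 1025 lower of 11707 tested. In bulk RNA, fewer cells of a type and less RNA per cell cannot be told apart, and this holds for every change given here.

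At the upper end, among genes of at least 10 TPM whose libraries did not overlap between the days (34.4% of the genes tested did not), stood anterior HOX genes. HOXB1 had 30.8, 21.3 and 25.6 TPM on day 2, against 0, 0.33 and 0 TPM on day 1, a ratio of 255-fold on 1 count in the 3 day 1 libraries together (95% exact interval 45.2 to 10100, counting error only). HOXB2 had 21.5, 19.0 and 16.4 TPM on day 2 and 0.36, 0.1 and 0.17 TPM on day 1, a log2 fold change of 6.39 ± 0.44. Other genes of the upper end were ALDH1A2, which makes retinoic acid, CDX2, CITED1, CD5L, MRAP2 and WFDC1. CD5L, known as a protein secreted by macrophages, had 136, 143 and 111 TPM on day 2, against 1.69, 2.27 and 0.84 TPM on day 1 (6.34 ± 0.27, adjusted p = 1.13e-10). MRAP2, an accessory protein of melanocortin receptors, had 17.0, 24.6 and 32.3 TPM on day 2 and 0.58, 0.79 and 0 TPM on day 1 (5.86 ± 0.51). WFDC1, a secreted protein with a whey acidic protein domain, had 45.3, 37.2 and 39.8 TPM on day 2 and 0.85, 1.17 and 0.4 TPM on day 1 (5.62 ± 0.39).

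At the lower end stood CER1, NODAL, FGF4, DKK4 and TDGF1, all of them genes of signalling in the streak, followed by BRINP1, ADGRG1, KLHL6, CHL1 and TRPM2. CER1, a secreted inhibitor of Nodal, BMP and Wnt, had 0.13, 0 and 0.17 TPM on day 2, against 193, 196 and 189 TPM on day 1. Its 3 counts on day 2 give a ratio of 1880-fold lower (95% exact interval 642 to 9100). KLHL6, best known from B cells, had 0.34, 0.26 and 0.63 TPM on day 2 and 35.8, 38.0 and 31.0 TPM on day 1 (-6.33 ± 0.35, adjusted p = 2.52e-09). CHL1, a neural cell adhesion molecule, had 0.38, 0.6 and 0.82 TPM on day 2 and 47.9, 37.7 and 39.1 TPM on day 1 (-6.06 ± 0.27, adjusted p = 1.51e-10). The adhesion receptor ADGRG1 had 0.54, 0.2 and 0.12 TPM on day 2 and 37.5, 16.4 and 14.0 TPM on day 1 (-6.35 ± 0.45). BRINP1 had 0.34, 0 and 0.14 TPM on day 2 and 20.9, 11.5 and 10.2 TPM on day 1 (-6.67 ± 0.45). The cation channel TRPM2 had 0.28, 0.54 and 0.04 TPM on day 2 and 12.7, 11.2 and 13.7 TPM on day 1 (-5.72 ± 0.44). As at the upper end, genes were named here only where the libraries of the 2 days did not overlap. This held for 34.4% of the genes tested, so the separation is part of the choice and no further result. The same 34.4% is the background for every gene below whose libraries are said not to overlap.

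**Figure D1:**
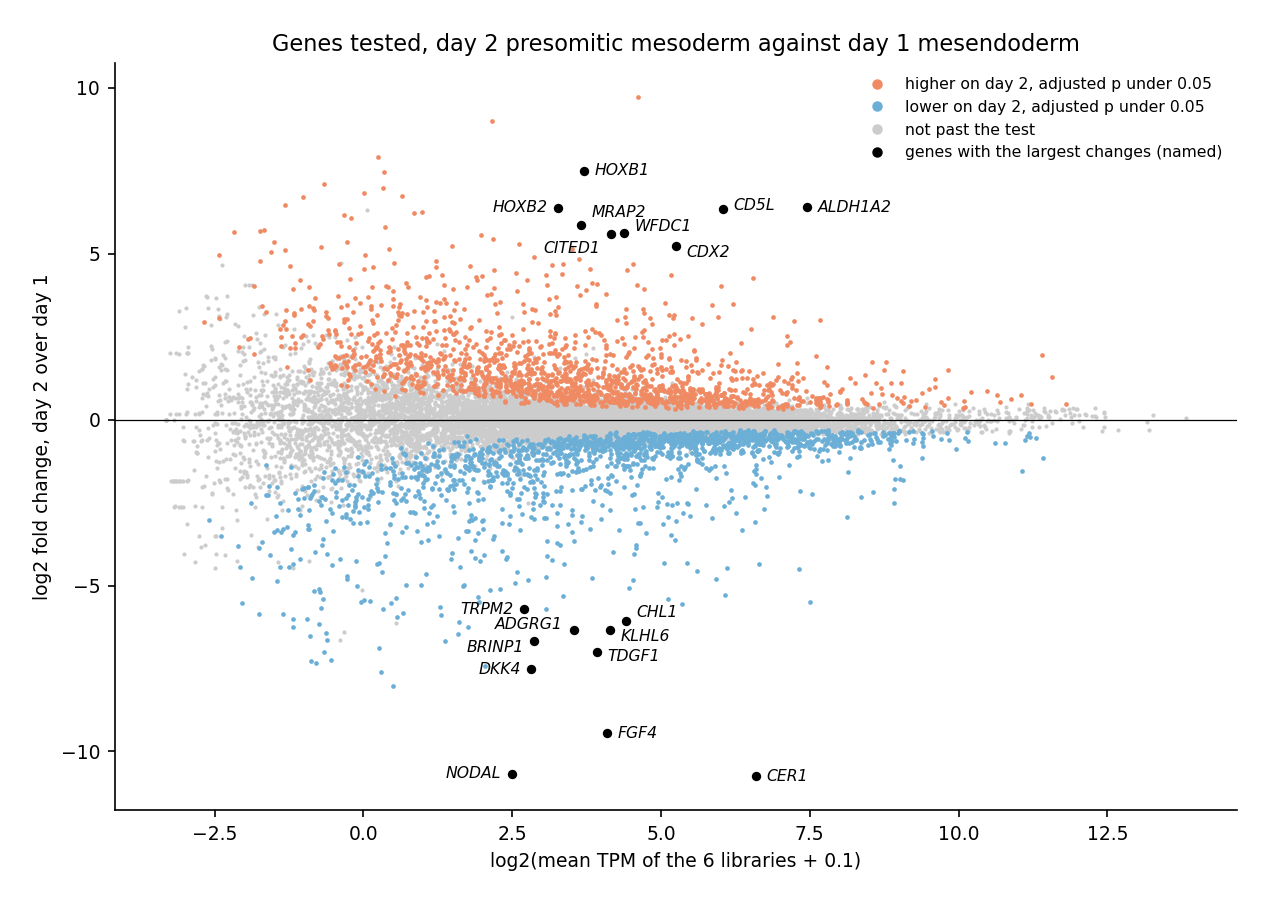
Log2 fold change of day 2 over day 1 (y axis) against log2(mean TPM of the 6 libraries + 0.1) (x axis) for 13059 genes, one point a gene. The 1615 genes past the test and higher on day 2 are orange, the 1714 lower ones blue, and 18 named genes black; values are those of the fit, which for NODAL and FGF4 (no count on day 2) depend on the prior count and are no bound.

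The defining markers of PSM went with the label. TBX6 (chromosome 3, 18271983 to 18277864, on Sscrofa11.1), a T-box factor needed for the paraxial fate, had 74.1, 39.4 and 38.4 TPM on day 2, against 10.3, 4.36 and 2.72 TPM on day 1, and rose by 3.07 ± 0.43 on the log2 scale (adjusted p = 6.11e-05). MSGN1 (chromosome 3, 120033980 to 120034624), a basic helix-loop-helix factor of the PSM, had 104, 96.6 and 72.8 TPM on day 2, against 17.9, 10.9 and 7.79 TPM on day 1, and rose by 2.90 ± 0.29 (adjusted p = 1.33e-05). HES7 (chromosome 12, 53334350 to 53339336), the repressor at the centre of the segmentation clock, had 21.8, 19.1 and 16.1 TPM on day 2, against 1.37, 1.26 and 0.1 TPM on day 1, and rose by 4.40 ± 0.47 (adjusted p = 3.49e-06). For each of the 3 markers every day 2 library lay above every day 1 library. The day 1 level was not at 0: MSGN1 and TBX6 were listed in all 3 day 1 libraries, with replicate 1 the highest of them.

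Of the 12 genes listed as PSM markers, 10 were tested; 7 were higher, 2 lower and 1 did not pass, with a median log2 fold change of 2.39. DLL1, the Notch ligand of the PSM, had 51.1, 34.3 and 40.6 TPM on day 2 and 18.9, 8.35 and 7.62 TPM on day 1 (1.88 ± 0.23, adjusted p = 1.45e-05). CITED1, a transcriptional co-regulator, had 38.6, 25.8 and 39.7 TPM on day 2 and 1.28, 0.26 and 0.44 TPM on day 1 (5.61 ± 0.46, adjusted p = 1.44e-07). RIPPLY1, which represses TBX6 at the front of the PSM, was low on both days, with 3.85, 2.69 and 1.18 TPM on day 2 and 0.39, 0.14 and 0.24 TPM on day 1 (3.16 ± 0.84, adjusted p = 0.0108). LFNG, the glycosyltransferase that tunes Notch receptors in the clock, had 27.4, 20.2 and 21.8 TPM on day 2 and 21.1, 12.4 and 10.6 TPM on day 1. Its libraries overlapped between the days. Its change of 0.66 ± 0.20 (adjusted p = 0.0263) did not pass without any 1 of 4 libraries (adjusted p 0.0649 to 0.0992). These were day 2 replicates 1 and 3 and day 1 replicates 2 and 3. Nor did LFNG pass with another test, limma, on log2(TPM + 1) (0.0992) or log2(TPM + 0.1) (0.121).

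MESP2 and RSPO3 were the 2 PSM markers that were lower on day 2. MESP2, which marks the stripe where the next somite border forms, had 0.28, 0 and 0.17 TPM on day 2, against 3.77, 4.92 and 2.72 TPM on day 1 (-4.64 ± 0.85, adjusted p = 0.000708). RIPPLY2, its partner at that border, was listed at 0 in the 6 libraries. RSPO3, a secreted enhancer of Wnt signalling, was among the most abundant genes of the list, with 151, 102 and 112 TPM on day 2 and 277, 154 and 173 TPM on day 1. Its change of -0.73 ± 0.22 (adjusted p = 0.0213) did not pass without day 2 replicate 2 (adjusted p = 0.0991), without day 2 replicate 3 (0.0609) or with no scaling beyond library size (0.0576). Nor did it pass with limma on log2(TPM + 1) (0.111) or log2(TPM + 0.1) (0.144). DLL3, a divergent ligand that acts inside the cell, had 32.1, 21.2 and 21.7 TPM on day 2 and 26.5, 17.2 and 14.1 TPM on day 1 and did not pass (0.37 ± 0.17, adjusted p = 0.132). With the replicate number as a block DLL3 passed (0.38 ± 0.13, adjusted p = 0.0268), as it did without replicate 1 of every day (0.44 ± 0.15, adjusted p = 0.0275).

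**Figure D2:**
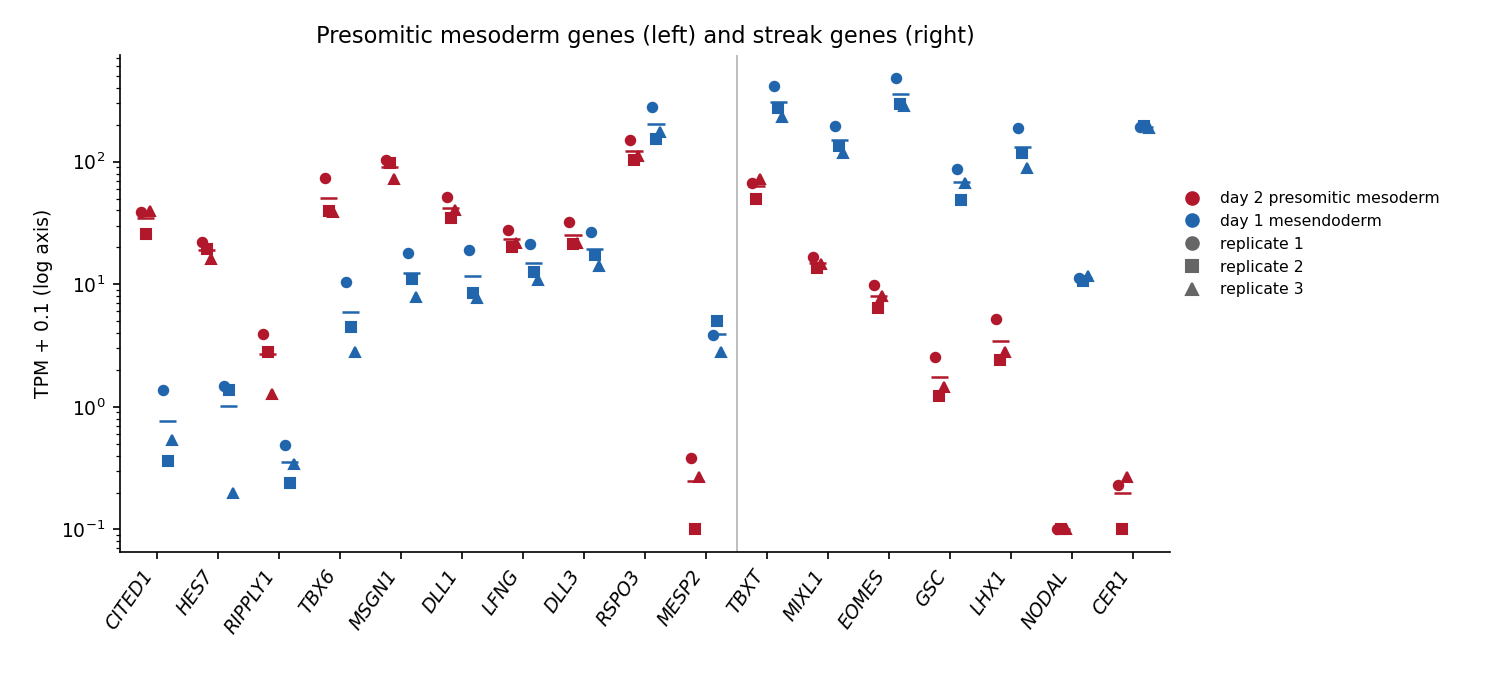
TPM + 0.1 on a log axis for 10 PSM markers (left of the line, in the order of their fold change) and 7 streak genes (right), with day 2 in red left of day 1 in blue; points are libraries, with a shape per replicate, and bars are means. The day 2 points of TBX6, MSGN1, HES7, DLL1, CITED1 and RIPPLY1 lie above all day 1 points, and those of the 7 streak genes lie below them.

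TBX6, MSGN1 and HES7 had their highest levels of the 4 days on day 2. TBX6 averaged 0.987 ± 0.723 TPM on day 0, 5.79 ± 3.99 on day 1, 50.6 ± 20.4 on day 2 and 1.44 ± 1.32 on day 3 (mean ± SD, n = 3 each). MSGN1 was listed at 0 in the 3 libraries of day 0 and in the 3 of day 3. The log2 fold change of TBX6 was 2.68 ± 0.56 for day 1 over day 0 (adjusted p = 0.00128) and -5.49 ± 0.55 for day 3 over day 2 (adjusted p = 5.71e-07). HES7 gave 2.82 ± 0.82 for day 1 over day 0 (adjusted p = 0.0121) and -6.99 ± 0.65 for day 3 over day 2 (adjusted p = 2.34e-07). DLL1, the Notch ligand, gave 3.06 ± 0.28 (adjusted p = 3.21e-07) and -1.94 ± 0.23 (adjusted p = 4.39e-06) for the same 2 steps. Both contrasts share libraries with the comparison of day 2 with day 1, and both called more genes. For day 1 over day 0, 19.7% of the genes tested were higher and 19.9% lower. For day 3 over day 2, 26.5% were higher and 24.6% lower.

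**Figure D3:**
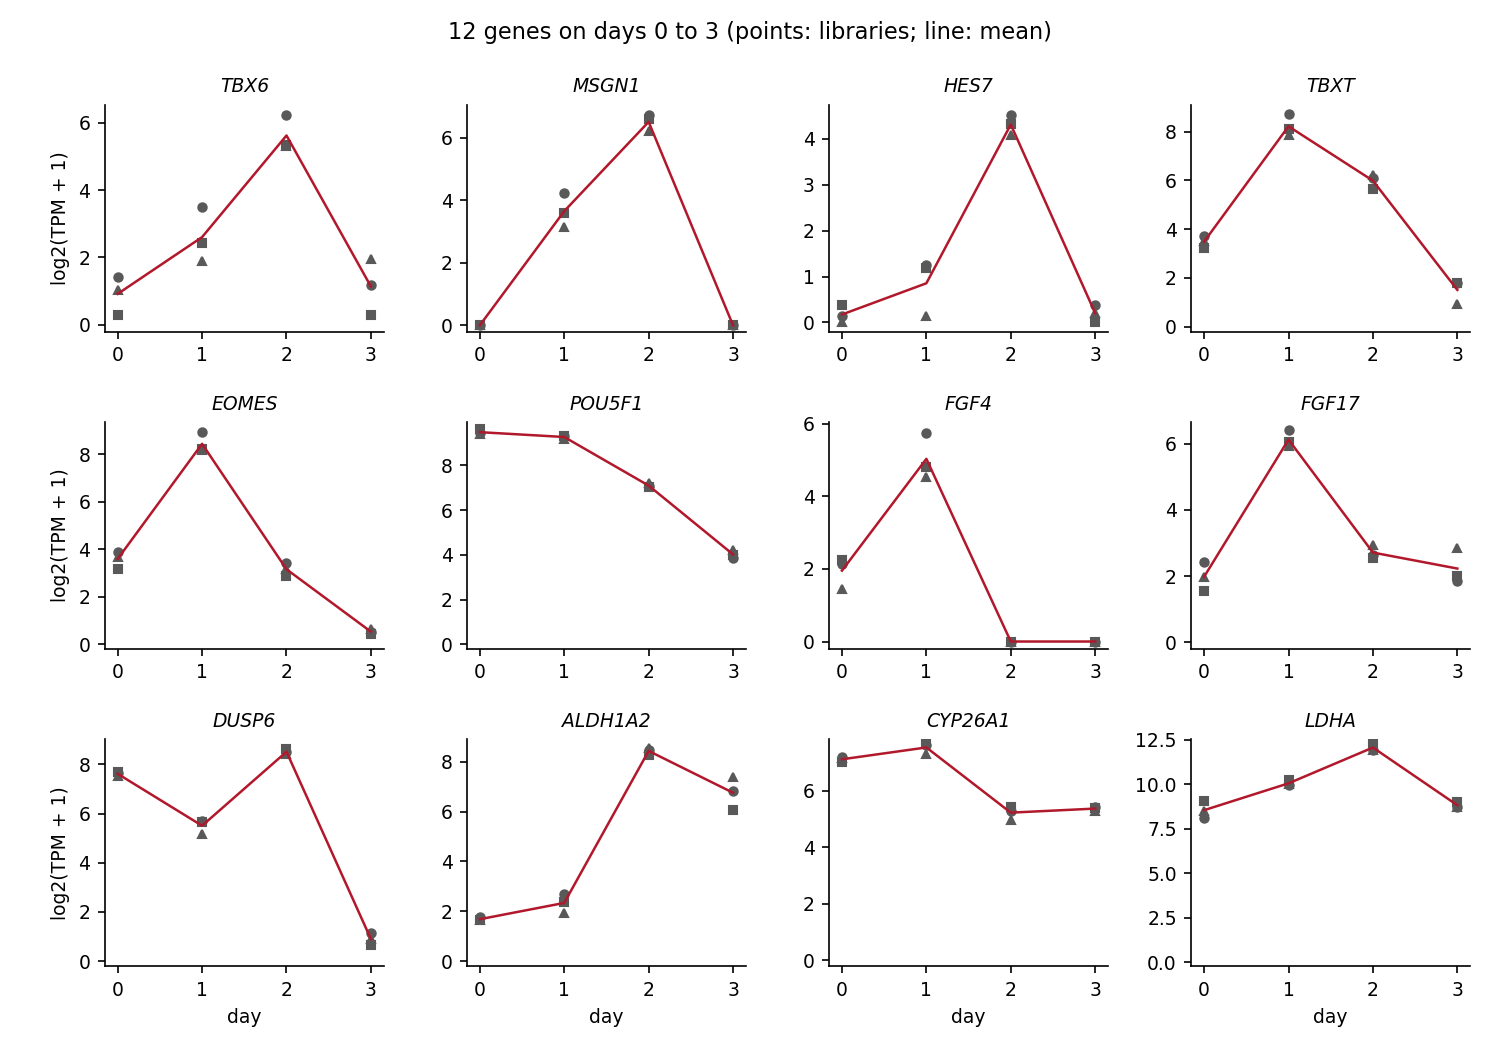
Log2(TPM + 1) of 12 genes (y axis) on days 0 to 3 (x axis); points are libraries, with a shape per replicate, and lines join the means. TBX6, MSGN1 and HES7 have their highest values on day 2, TBXT, EOMES and FGF4 on day 1, and POU5F1 on day 0; DUSP6 is low on day 1 between higher values on days 0 and 2.

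The Notch pathway rose in part. Of 24 listed genes, 21 were tested; 9 were higher and 3 lower, with a median log2 fold change of 0.69. Beside DLL1 and HES7, HEY1, a Notch-responsive repressor, had 20.5, 22.2 and 17.0 TPM on day 2 and 6.81, 7.97 and 5.71 TPM on day 1 (1.53 ± 0.25, adjusted p = 0.000211). Its relative HEY2 went the other way, with 2.1, 5.21 and 1.89 TPM on day 2, against 57.1, 41.3 and 35.9 TPM on day 1 (-3.78 ± 0.37, adjusted p = 1.03e-06). The libraries of neither gene overlapped between the days. HES4 had 1.44, 0.6 and 0.32 TPM on day 2 and no count on day 1, at least 12.7-fold higher at a floor of 3 counts over the group. HES5 had no count on day 2 and 0.21, 1.16 and 1.4 TPM on day 1, at least 3.74-fold lower, and its call was lost without any 1 of 5 libraries (adjusted p 0.0558 to 0.0781).

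Among the receptors, NOTCH1 had 10.97, 4.78 and 4.08 TPM on day 2 and 6.44, 1.39 and 1.15 TPM on day 1, and replicate 1 was the highest library of each day. Its change of 1.16 ± 0.42 did not pass (adjusted p = 0.0553) but passed with the replicate block (1.25 ± 0.25, adjusted p = 0.000409) and without replicate 1 (1.78 ± 0.21, adjusted p = 7.2e-07), and without day 2 replicate 3 (0.0443). HES1, a Notch target that also oscillates, had 4.82, 2.23 and 3.24 TPM on day 2 and 8.39, 5.26 and 2.12 TPM on day 1, which overlapped (-0.60 ± 0.54, adjusted p = 0.458). RBPJ, the DNA-binding partner of the receptors, had 26.1, 16.7 and 14.1 TPM on day 2 and 28.6, 19.8 and 18.1 TPM on day 1 (-0.25 ± 0.16, adjusted p = 0.286). The number of Notch genes higher on day 2 was 4 in the fit on 6 libraries and 5 without day 2 replicate 1, without day 1 replicate 2 or without day 1 replicate 3. It was 12 with the replicate block and also 12 without replicate 1 of every day.

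Streak genes fell on a broad front. Of 17 listed genes, all of them tested, 14 were lower, none was higher and the median log2 fold change was -3.31. TBXT (brachyury), the T-box factor of the streak, had 67.5, 49.9 and 72.7 TPM on day 2, against 417, 274 and 229.8 TPM on day 1 (-2.25 ± 0.19, adjusted p = 2.69e-07). It was the most abundant of the 4 defining streak markers on day 2, whereas EOMES was on day 1. EOMES, the T-box factor of early mesendoderm, had 9.68, 6.3 and 7.96 TPM on day 2, against 483, 296 and 287 TPM on day 1 (-5.48 ± 0.21, adjusted p = 4.79e-11). MIXL1, a homeobox factor of the streak, had 16.6, 13.5 and 14.4 TPM on day 2, against 195, 135 and 117 TPM on day 1 (-3.32 ± 0.25, adjusted p = 5.55e-08). GSC, which marks the front of the streak, had 2.43, 1.12 and 1.36 TPM on day 2, against 87.7, 48.8 and 67.0 TPM on day 1 (-5.39 ± 0.37, adjusted p = 2.26e-08). LHX1, a LIM homeobox factor, had 5.09, 2.29 and 2.71 TPM on day 2 and 187, 117 and 89.2 TPM on day 1 (-5.30 ± 0.30, adjusted p = 2.87e-09). The libraries of the 2 days did not overlap for any of these 5 genes, as for 34.4% of all genes tested. MESP1, of nascent mesoderm, was lower as well (-4.09 ± 0.45, adjusted p = 3.85e-06).

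Of the streak genes, 3 did not pass, among them APLNR and EVX1. EVX1, a homeobox factor of the posterior streak, had 13.4, 14.2 and 8.43 TPM on day 2 and 19.7, 11.4 and 3.01 TPM on day 1, which overlapped (0.12 ± 0.50, adjusted p = 0.894). APLNR, the apelin receptor of migrating mesoderm, stayed abundant, with 285, 200.3 and 194 TPM on day 2 and 393, 235 and 163 TPM on day 1 (-0.20 ± 0.24, adjusted p = 0.574).

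The Nodal ligand, its co-receptor and several of its inhibitors were lower together. Of 22 listed genes, 18 were tested; 11 were lower and 1 higher (median -1.16). NODAL, the ligand that patterns the streak, had no count on day 2 and 11.04, 10.6 and 11.7 TPM on day 1, at least 178-fold lower. TDGF1, its co-receptor, had 0.55, 0.25 and 0 TPM on day 2 and 24.2, 31.5 and 34.2 TPM on day 1, a ratio of 141-fold lower on 3 counts (95% exact interval 47.9 to 685). LEFTY2, an inhibitor that Nodal signalling switches on, had 0.73, 0 and 0.62 TPM on day 2 and 21.7, 20.2 and 17.4 TPM on day 1 (-5.30 ± 0.56, adjusted p = 7.17e-06). The inhibitor of TGF-beta signalling PMEPA1 had 0.09, 0.32 and 0.34 TPM on day 2 and 14.4, 6.11 and 7.47 TPM on day 1 (-5.10 ± 0.41, adjusted p = 1.33e-07). The activin-binding protein FST was lower too, with 108, 116 and 105 TPM on day 2 and 653, 494 and 508 TPM on day 1 (-2.33 ± 0.15, adjusted p = 1.13e-08). SMAD3, an intracellular carrier of the signal, was the member that rose, with 15.9, 9.42 and 7.7 TPM on day 2 and 2.87, 1.5 and 0.75 TPM on day 1 (2.73 ± 0.30, adjusted p = 4.38e-06). The receptor ACVR2B had 41.8, 32.4 and 28.0 TPM on day 2 and 40.5, 22.9 and 14.9 TPM on day 1 and did not pass (0.45 ± 0.20, adjusted p = 0.12), but was higher with the replicate block (0.48 ± 0.14, adjusted p = 0.0112).

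Endoderm genes were lower on day 2. Of 16 listed genes, 14 were tested; 9 were lower and 2 higher (median -1.51). SOX17, a factor of definitive endoderm, had 53.4, 30.4 and 33.4 TPM on day 2, against 210.2, 130.2 and 115 TPM on day 1 (-1.97 ± 0.23, adjusted p = 9.05e-06). GATA6 had 6.41, 4.39 and 2.39 TPM on day 2 and 169.6, 96.5 and 86.7 TPM on day 1 (-4.80 ± 0.33, adjusted p = 2.03e-08), and HHEX was lower by a similar size (-3.88 ± 0.29, adjusted p = 4.87e-08). FOXA2, shared by endoderm and node, had 5.75, 1.52 and 2.13 TPM on day 2 and 14.5, 5.62 and 4.85 TPM on day 1. Its change of -1.44 ± 0.47 (adjusted p = 0.0326) did not pass without day 2 replicate 2 (0.135), without day 2 replicate 3 (0.117), without day 1 replicate 1 (0.138), with no scaling beyond library size (0.0644) or in the fit on 6 libraries (0.0782). Nor did it pass with limma on log2(TPM + 1) (0.078) or log2(TPM + 0.1) (0.0829). FOXA1 rose, with 5.86, 2.77 and 3.21 TPM on day 2 and 0.77, 0.19 and 0.48 TPM on day 1 (2.98 ± 0.31, adjusted p = 2.73e-06). APOA1, an apolipoprotein, also rose, with 633, 784 and 741 TPM on day 2 and 293, 342 and 353 TPM on day 1 (1.10 ± 0.18, adjusted p = 0.000248). HNF4A, a later endoderm factor, was at 0.653 ± 0.474 TPM on day 2 and 0.883 ± 0.229 TPM on day 1 (mean ± SD, n = 3 each).

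Pluripotency factors fell unevenly: of 20 listed genes, 15 were tested, 8 were lower and 2 higher (median -1.25). POU5F1 (OCT4) had 132, 131 and 145 TPM on day 2, against 638, 638 and 573 TPM on day 1 (-2.19 ± 0.14, adjusted p = 1.44e-08), so its day 2 level was still above 100 TPM in each library. NANOG had 1.03, 1.58 and 0.77 TPM on day 2, against 8.93, 7.85 and 9.45 TPM on day 1 (-3.13 ± 0.42, adjusted p = 3.41e-05). OTX2, a factor of the anterior epiblast and streak, had 5.3, 7.67 and 5.53 TPM on day 2, against 120.3, 136 and 139 TPM on day 1 (-4.47 ± 0.22, adjusted p = 5.7e-10). The de novo DNA methyltransferase DNMT3B had 20.6, 16.1 and 20.4 TPM on day 2 and 154, 102 and 89.4 TPM on day 1 (-2.61 ± 0.16, adjusted p = 7.39e-09). SOX2 was low on both days, with 2.55, 2.75 and 3.34 TPM on day 2 and 2.56, 4.03 and 0.53 TPM on day 1, and did not pass (0.36 ± 0.45, adjusted p = 0.61). PRDM14 had 1 count on day 2 and 21 on day 1, a ratio of 18.1-fold lower (95% exact interval 2.92 to 750). LIN28A, which blocks maturation of let-7, had 862, 1088 and 1062 TPM on day 2 and 699.6, 769 and 710.4 TPM on day 1. Its change of 0.46 ± 0.16 (adjusted p = 0.0453) did not pass without any 1 of 4 libraries (day 2 replicate 2 or 3, day 1 replicate 1 or 2; adjusted p 0.0631 to 0.16) or in the fit on 6 libraries (0.0899). The related LIN28B had 113, 107 and 119 TPM on day 2 and 101, 80.1 and 73.0 TPM on day 1 (0.42 ± 0.14, adjusted p = 0.037). That call was lost without any 1 of 4 libraries, day 2 replicate 2 or 3 or day 1 replicate 2 or 3 (0.0528 to 0.147). It was also lost in the fit on 6 libraries (0.0605) and with no filter on low counts (0.064). With limma on log2(TPM + 1) and log2(TPM + 0.1) the adjusted p was 0.0544 and 0.0577. The number of pluripotency genes called higher was 0 in the fit on 6 libraries and without day 2 replicate 2, day 2 replicate 3 or day 1 replicate 2, and 1 without day 1 replicate 3.

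FGF ligands and the feedback genes of FGF-ERK signalling moved in opposite directions. Of 23 listed ligands and receptors, 12 were tested; 7 were lower and 1 higher (median -1.64). The count of higher ones was 2 without day 2 replicate 2 or 3 or day 1 replicate 2 or 3, and 3 without day 1 replicate 1 or with the replicate block. Of 16 listed feedback targets, 16 were tested; 8 were higher and 1 lower (median 0.93), with 2 lower without day 1 replicate 3. FGF4 had no count on day 2 and 52.8, 27.1 and 22.0 TPM on day 1, at least 79.5-fold lower. FGF17 had 5.28, 4.87 and 6.63 TPM on day 2, against 84.2, 64.9 and 60.0 TPM on day 1 (-3.61 ± 0.28, adjusted p = 9.01e-08). FGF19 had 5.97, 2.97 and 1.03 TPM on day 2, against 105, 46.1 and 37.2 TPM on day 1 (-4.33 ± 0.55, adjusted p = 1.98e-05). All day 2 libraries lay below all day 1 libraries in these 3 genes, and 34.4% of all genes tested had no overlap in either direction. The receptor FGFR2 fell as well, with 5.46, 5.04 and 3.94 TPM on day 2 and 22.3, 12.3 and 10.4 TPM on day 1 (-1.64 ± 0.21, adjusted p = 1.92e-05). FGF10 was the ligand called higher, at 3.08, 3.23 and 2.5 TPM on day 2 and 1.7, 1.63 and 1.02 TPM on day 1 (1.01 ± 0.27, adjusted p = 0.0116), and its call was lost with limma on TPM (0.0571 and 0.0547 for pseudocounts of 1 and 0.1). FGFR1, the main receptor by level, had 103, 74.3 and 73.2 TPM on day 2 and 106, 51.1 and 38.1 TPM on day 1. It did not pass (0.39 ± 0.21, adjusted p = 0.204) but passed with the replicate block (0.43 ± 0.15, adjusted p = 0.0268).

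DUSP6, a phosphatase that switches ERK off and is itself switched on by FGF, had 361, 391 and 342 TPM on day 2, against 51.3, 49.4 and 34.5 TPM on day 1 (3.02 ± 0.14, adjusted p = 3.93e-10). SPRY1, an inhibitor of receptor tyrosine kinase signalling, had 50.3, 31.4 and 30.0 TPM on day 2, against 5.74, 5.23 and 3.85 TPM on day 1 (2.90 ± 0.20, adjusted p = 2.31e-08). Its relative SPRED3 was low, with 0.66, 0.87 and 1 TPM on day 2 and 0.13, 0 and 0.12 TPM on day 1 (3.32 ± 0.75, adjusted p = 0.00371). The ETS factor ETV5 had 54.2, 46.2 and 44.9 TPM on day 2 and 30.3, 24.6 and 16.6 TPM on day 1 (1.03 ± 0.15, adjusted p = 8.65e-05). Not every target moved: SPRY2 had 55.2, 49.1 and 48.3 TPM on day 2 and 57.9, 62.6 and 55.4 TPM on day 1 (-0.23 ± 0.14, adjusted p = 0.258). SPRY4 had 38.5, 22.8 and 23.5 TPM on day 2 and 33.5, 15.3 and 11.7 TPM on day 1 and passed with the replicate block (0.56 ± 0.15, adjusted p = 0.00494), as did ETV4 (0.60 ± 0.16, adjusted p = 0.00543). ETV1 was the target called lower (-0.61 ± 0.17, adjusted p = 0.0145). Its call was lost in the fit on 6 libraries (0.0666) and without day 2 replicate 2 or day 2 replicate 3 (0.0562 in each case). It was also lost with limma on log2(TPM + 1) (0.0809) and log2(TPM + 0.1) (0.251). DUSP6 had averaged 195 ± 8.79 TPM on day 0, 45.1 ± 9.18 on day 1, 365 ± 24.9 on day 2 and 0.877 ± 0.317 on day 3 (mean ± SD, n = 3 each).

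Genes of retinoic acid synthesis, uptake and binding rose. Of 19 listed genes, 15 were tested; 7 were higher and 2 lower (median 0.72). ALDH1A2, which makes retinoic acid in trunk mesoderm, had 359, 309 and 376 TPM on day 2, against 5.41, 4.19 and 2.86 TPM on day 1 (6.40 ± 0.29, adjusted p = 2.12e-10). STRA6, the retinol uptake receptor, had 95.9, 56.4 and 53.6 TPM on day 2, against 6.63, 2.38 and 1.51 TPM on day 1 (4.36 ± 0.34, adjusted p = 7.96e-08). DHRS3, a retinal reductase that responds to retinoic acid, had 7.89, 9.48 and 8.67 TPM on day 2, against 0.11, 0.12 and 0.32 TPM on day 1 (5.44 ± 0.43, adjusted p = 9.51e-08). CYP26A1, which breaks retinoic acid down, went the other way, with 38.2, 41.6 and 30.0 TPM on day 2 and 194, 203 and 156 TPM on day 1 (-2.30 ± 0.15, adjusted p = 1.41e-08). The libraries of the 2 days did not overlap in any of the 4 genes, as in 34.4% of all genes tested. The binding proteins CRABP1 (1.59 ± 0.30, adjusted p = 0.000933) and CRABP2 (1.48 ± 0.15, adjusted p = 1.45e-06) rose. CRABP2 was the most abundant gene of the list, with 1445, 1138 and 1410.0 TPM on day 2 and 599.7, 447 and 385 TPM on day 1. ALDH1A3, another synthesis enzyme, had 1 count on day 2 and 71 on day 1, a ratio of 61.3-fold lower (95% exact interval 10.7 to 2460). RARB, a receptor gene that retinoic acid switches on, was low and uneven, with 0.91, 2.79 and 0.08 TPM on day 2 and 0.1, 0 and 0.47 TPM on day 1, and passed with the replicate block (2.38 ± 0.90, adjusted p = 0.0443) but not without it (2.40 ± 0.98, adjusted p = 0.0846); it also passed without day 2 replicate 3 (0.0102) or day 1 replicate 3 (0.0345).

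CDX and anterior HOX genes came on between the 2 days. Of 42 listed genes, 17 were tested; 13 were higher and 1 lower, with a median log2 fold change of 4.83, or 4.48 with genes absent from a group set at their bound. CDX2, a caudal factor that activates HOX genes in the trunk, had 98.6, 52.1 and 71.7 TPM on day 2, against 2.88, 0.75 and 2.06 TPM on day 1 (5.24 ± 0.39, adjusted p = 5.55e-08). CDX4 had 17.8, 16.4 and 19.7 TPM on day 2 and 7.39, 6.55 and 7.34 TPM on day 1 (1.33 ± 0.25, adjusted p = 0.000861). CDX1 had 9.68, 4.83 and 8.56 TPM on day 2 and 2.69, 0.88 and 2.02 TPM on day 1 (2.01 ± 0.57, adjusted p = 0.0204), and did not pass without day 2 replicate 1 (0.0654), day 2 replicate 3 (0.0758) or day 1 replicate 2 (0.096).

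Most HOX genes that rose lay at the front end of their clusters, with HOXB7 and HOXB8 farther along. In paralog groups 1 to 3, 8 of 8 genes were tested and 8 were higher. In groups 4 to 8, 4 of 13 genes were tested and 2 were higher; in groups 9 to 13, 2 of 15 genes were tested, none was higher and HOXD13 was lower. HOXD1 had 28.8, 17.9 and 24.1 TPM on day 2, against 1.27, 0.55 and 0.59 TPM on day 1 (4.83 ± 0.39, adjusted p = 1.18e-07). HOXA2 had 3.2, 1.82 and 2.04 TPM on day 2 and no count on day 1, at least 22.4-fold higher, and HOXA3 had 2.41, 1.65 and 2.46 TPM on day 2 and no count on day 1, at least 31.6-fold higher. HOXB3 had 2.57, 1.41 and 1.43 TPM on day 2 (135 counts), with 1 count on day 1, and HOXD3 had 2.42, 0.91 and 0.98 TPM on day 2 (47 counts), also with 1 count on day 1. HOXB7, of group 7, had 11.12, 12.1 and 9.73 TPM on day 2, against 0.19, 1.24 and 0.72 TPM on day 1 (3.88 ± 0.60, adjusted p = 0.00015). HOXB8, of group 8, had 3.54, 3.45 and 4.61 TPM on day 2, against 0.79, 0.43 and 0.25 TPM on day 1 (2.98 ± 0.62, adjusted p = 0.00255). Their neighbour HOXB6 had 3.03, 0.93 and 1.86 TPM on day 2 and 1.26, 1.05 and 1.27 TPM on day 1, which overlapped (0.65 ± 0.55, adjusted p = 0.427). HOXD13, normally the last gene of its cluster to be used, had 0.37, 0 and 0.35 TPM on day 2 and 2.31, 2.43 and 2.09 TPM on day 1 (-3.14 ± 0.68, adjusted p = 0.00272). HOX genes that were not tested had too few counts, so a change in them was not detectable at this depth.

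**Figure D4:**
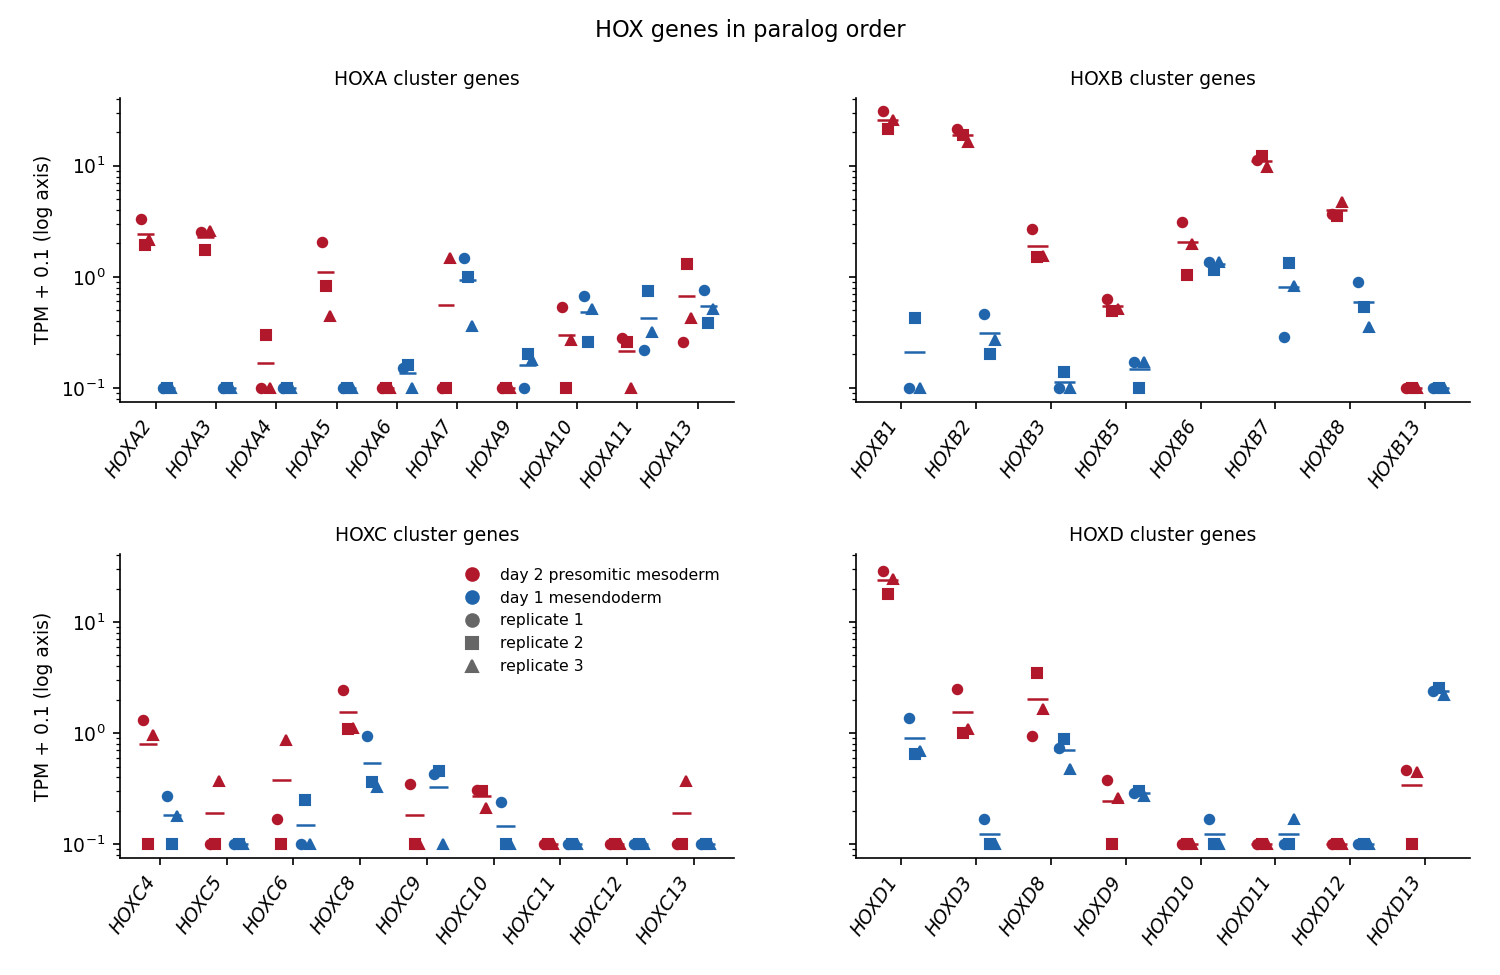
TPM + 0.1 on a log axis for HOX genes, by cluster and in paralog order from left to right, with day 2 in red left of day 1 in blue; points are libraries, with a shape per replicate, and bars are means. Of the genes shown, HOXB1, HOXB2 and HOXD1 have the highest day 2 levels, with HOXB7 and HOXB8 above their day 1 points, and the genes of groups 9 to 13 lie at or below 3 TPM on both days.

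Wnt targets were lower more often than higher. Of 22 listed targets and feedback genes, 22 were tested, and 3 were higher and 9 lower (median -0.05). Of all genes, 12.4% were higher and 13.1% lower, so the share of targets that was higher was near that of all genes. AXIN2, the feedback gene most often used as a readout, had 42.2, 22.0 and 29.6 TPM on day 2 and 40.3, 18.9 and 16.5 TPM on day 1 (0.31 ± 0.27, adjusted p = 0.438). LEF1, a nuclear partner of beta-catenin, had 77.2, 39.7 and 52.3 TPM on day 2 and 76.3, 41.2 and 33.9 TPM on day 1 (0.15 ± 0.23, adjusted p = 0.677). The libraries of both genes overlapped between the days. DKK1, a secreted Wnt antagonist, fell, with 131, 137 and 170.0 TPM on day 2, against 696, 824 and 952 TPM on day 1 (-2.53 ± 0.23, adjusted p = 4.74e-07). DKK4 had 1 count on day 2 and 283 on day 1, a ratio of 244-fold lower (95% exact interval 43.5 to 9690). LGR5, a receptor for R-spondins, had 1.29, 0.13 and 0.62 TPM on day 2 and 9.62, 5.91 and 4.54 TPM on day 1 (-3.41 ± 0.53, adjusted p = 0.000149). MYC had 3.2, 1.62 and 2.77 TPM on day 2 and 19.8, 13.3 and 12.6 TPM on day 1 (-2.57 ± 0.29, adjusted p = 6.24e-06). ZNRF3, a ubiquitin ligase that removes Frizzled receptors, rose, with 10.9, 7.88 and 6.75 TPM on day 2 and 4.19, 2.65 and 1.65 TPM on day 1 (1.61 ± 0.25, adjusted p = 0.000158). Without day 1 replicate 1, or without replicate 1 of every day, 5 targets were higher; AXIN2 was one of them without replicate 1 (0.54 ± 0.19, adjusted p = 0.0351).

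Wnt ligands and receptors changed in both directions. Of 33 listed genes, 27 were tested. Among them 6 were higher and 8 lower (median -0.22), against 12.4% and 13.1% of all genes. WNT3, the ligand of the streak, had 2.77, 2.15 and 1.52 TPM on day 2, against 12.3, 7.55 and 6.94 TPM on day 1 (-2.07 ± 0.34, adjusted p = 0.000245). WNT5B had 63.2, 47.1 and 74.0 TPM on day 2, against 17, 11.4 and 10.8 TPM on day 1 (2.24 ± 0.28, adjusted p = 1.68e-05). Of the Frizzled receptors, FZD10 rose, with 47.1, 35.3 and 37.5 TPM on day 2 and 10.4, 6.87 and 4.4 TPM on day 1 (2.48 ± 0.24, adjusted p = 9.2e-07). FZD4 fell, with 13.5, 9.15 and 9.32 TPM on day 2 and 78.2, 41.6 and 41.2 TPM on day 1 (-2.33 ± 0.20, adjusted p = 3.21e-07). FZD8 (-3.38 ± 0.70, adjusted p = 0.00186) and FZD5 (-2.57 ± 0.58, adjusted p = 0.00339) were low genes that fell, and FZD5 did not pass in the fit on 6 libraries (0.0641). SFRP1, a secreted antagonist that binds Wnt, had 188, 152 and 136 TPM on day 2, against 31.4, 26.3 and 13.4 TPM on day 1 (2.75 ± 0.19, adjusted p = 2.2e-08). WNT3A, the ligand of the tailbud, had 5.46, 3.34 and 3.8 TPM on day 2 and 3.73, 3.73 and 1.89 TPM on day 1 and did not pass (0.44 ± 0.43, adjusted p = 0.496).

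BMP genes were mostly lower. Of 25 listed genes, 22 were tested; 12 were lower and 4 higher (median -0.99). SMAD7, an inhibitory SMAD, had 1.24, 0.89 and 0.48 TPM on day 2, against 9.33, 3 and 5.04 TPM on day 1 (-3.05 ± 0.37, adjusted p = 1.42e-05). The response genes MSX2 (6.22, 4.79 and 7.64 TPM on day 2 and 42.1, 41.9 and 38.8 TPM on day 1; -2.71 ± 0.21, adjusted p = 7.6e-08) and MSX1 (-2.58 ± 0.50, adjusted p = 0.00103) fell. BMP4, the main BMP ligand of the list by level on day 1, had 96.8, 64.0 and 78.4 TPM on day 2 and 276, 177 and 164 TPM on day 1 (-1.37 ± 0.16, adjusted p = 9.39e-06). BMP5 was the ligand that rose, with 59.2, 65.5 and 72.6 TPM on day 2, against 8.51, 7.95 and 7.1 TPM on day 1 (3.07 ± 0.23, adjusted p = 4.27e-08). The response gene ID3 rose on a high level, with 1182, 1053 and 1104 TPM on day 2 and 767, 718 and 606 TPM on day 1 (0.66 ± 0.13, adjusted p = 0.000987), while ID2 fell (-1.85 ± 0.24, adjusted p = 2.1e-05). The libraries of SMAD7, MSX2, BMP4, BMP5, ID2 and ID3 did not overlap between the days, as for 34.4% of all genes tested. ID1, in the same family, had 22.5, 24.4 and 30.3 TPM on day 2 and 32.0, 32.8 and 30.2 TPM on day 1 (-0.29 ± 0.22, adjusted p = 0.356).

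Some genes of the next stage, the somite, were higher on day 2 than on day 1. Of 20 somite and paraxial patterning genes, 13 were tested; 6 were higher and 4 lower (median 0.36). TCF15 (paraxis), which gives somites their epithelial form, had 16.8, 14.0 and 16.7 TPM on day 2, against 2.28, 1.58 and 3.7 TPM on day 1 (2.60 ± 0.33, adjusted p = 1.81e-05). FOXC2 had 47 counts on day 2 and 2 on day 1, a ratio of 27.2-fold (95% exact interval 7.12 to 231). MEOX1 had 1.02, 1.8 and 0.41 TPM on day 2 and 0, 0.3 and 0.17 TPM on day 1 (2.68 ± 0.83, adjusted p = 0.0249); its call was lost without day 2 replicate 2 (0.141), day 1 replicate 1 (0.083), day 1 replicate 3 (0.0534) or replicate 1 of every day (0.111). PAX3 had too few counts to be tested, with 0, 0.12 and 0.34 TPM on day 2 and 0.41, 0.09 and 0.29 TPM on day 1. PAX7, a marker of later somites, had 2 counts on day 2 and 176 on day 1, a ratio of 76-fold lower (95% exact interval 20.7 to 633). The summed level of the 4 somite markers ran from 10.3 to 14.6 TPM on day 0, from 1.97 to 4.16 TPM on day 1, from 17.5 to 20.2 TPM on day 2 and from 23.9 to 32.2 TPM on day 3. Most of the day 0 level was TCF15, which averaged 10.9 ± 1.71 TPM on day 0, 2.52 ± 1.08 on day 1, 15.8 ± 1.54 on day 2 and 11.7 ± 1.14 on day 3 (mean ± SD, n = 3 each), so day 1 held the lowest level of the 4 days. The number of these genes called lower was 2 in the fit on 6 libraries and without day 2 replicate 2, day 1 replicate 1 or replicate 1 of every day.

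Markers of other mesoderm were lower more often than higher on day 2. Of 19 lateral plate, cardiac and vessel genes, 14 were tested; 7 were lower and 3 higher (median -1.60). HAND1, of lateral and extraembryonic mesoderm, had 1.07, 0.59 and 0.24 TPM on day 2, against 20.7, 14.2 and 13 TPM on day 1 (-4.73 ± 0.42, adjusted p = 3.65e-07). HAND2 had 1 count on day 2 and 38 on day 1, a ratio of 32.8-fold lower (95% exact interval 5.55 to 1330). KDR, a VEGF receptor of early mesoderm and vessels, had 32.2, 20.0 and 19.8 TPM on day 2, against 162, 112 and 93.9 TPM on day 1 (-2.37 ± 0.21, adjusted p = 4.55e-07). Among those that rose, MEIS1, a HOX partner, had 7.41, 8.34 and 8.61 TPM on day 2 and 1.36, 1.76 and 0.94 TPM on day 1 (2.56 ± 0.37, adjusted p = 7.25e-05), and LMO2 had 59.3, 42.9 and 62.5 TPM on day 2 and 14.8, 18.7 and 11.5 TPM on day 1 (1.86 ± 0.23, adjusted p = 1.33e-05). ETV2 was higher too, by 2.34 ± 0.45 with no scaling beyond library size and 2.26 ± 0.46 with the replicate block (adjusted p = 0.00151 and 0.000479, edgeR). The blood and vessel markers TAL1 and CDH5, and the cardiac marker NKX2-5, stayed under 1 TPM in each of the 6 libraries. FOXF1 had 1.12, 0.66 and 0.82 TPM on day 2 and 1.46, 1.05 and 0.55 TPM on day 1, which overlapped (-0.23 ± 0.39, adjusted p = 0.71).

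Smaller lists named tissues that border the streak or PSM. Their counts are given as values only, beside 12.4% higher and 13.1% lower of all genes tested. Of 10 node and notochord genes, 7 were tested and 5 were lower, none higher (3 lower without day 2 replicate 3 or in the fit on 6 libraries); those lower include NODAL, TBXT and FOXA2 above and the BMP antagonist CHRD (2.31, 1.78 and 1.1 TPM on day 2 and 12.8, 4.13 and 3.58 TPM on day 1; -2 ± 0.48, adjusted p = 0.00541). Of 9 intermediate mesoderm genes, 5 were tested and 2 were lower, LHX1 above and GATA3 (2.37, 1.91 and 1.14 TPM on day 2 and 10.6, 6.01 and 2.96 TPM on day 1; -1.86 ± 0.39, adjusted p = 0.00223). Of 15 neural and neuromesodermal genes, 9 were tested; CDX1 and SOX21 were higher and TBXT lower, with 1 higher without day 2 replicate 1, day 2 replicate 3 or day 1 replicate 2 and 2 lower without day 2 replicate 1. SOX21 had 101 counts on day 2 and 3 on day 1, a ratio of 39-fold (95% exact interval 13 to 192). The neural markers SOX1 and PAX6 were listed at 0 in all 3 day 2 libraries. Of 12 trophectoderm and amnion-associated genes, 11 were tested; 3 were higher and 2 lower. Those higher include CDX2 and TFAP2C (10.4, 9.09 and 8.41 TPM on day 2 and 3.63, 2.19 and 2.6 TPM on day 1; 1.72 ± 0.22, adjusted p = 1.84e-05).

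Marker sums were compared for the cell types that the libraries could hold. The 3 PSM markers summed to 127.3 to 199.8 TPM on day 2 and 10.6 to 29.6 TPM on day 1. The 4 streak markers (TBXT, MIXL1, EOMES, GSC) summed to 70.8 to 96.5 TPM on day 2 and 700.5 to 1182 TPM on day 1, so neither set was absent on either day. The 3 undifferentiated markers summed to 135.1 to 149.2 TPM on day 2 and 582.8 to 649.7 TPM on day 1, nearly all of it POU5F1. The 3 definitive endoderm markers, carried by SOX17, ran from 32.3 to 60.3 TPM on day 2 and from 120.0 to 225.9 TPM on day 1. The 3 fibroblast markers summed to 16.5 to 30.5 TPM on day 2 and 22.8 to 60.8 TPM on day 1, most of it COL1A1. Of these, DCN, a matrix proteoglycan, had 2 counts on day 2 and 17 on day 1 (a ratio of 7.34-fold lower, 95% exact interval 1.74 to 65.5). Its adjusted p of 0.0426 rose to 0.0535 with the replicate block and to 0.0641 to 0.131 without any 1 library. With no filter on low counts it was 0.071, and with DESeq2 0.0627. COL1A1 had 28.8, 17.4 and 15.8 TPM on day 2 and 58.3, 21.2 and 20.6 TPM on day 1 and did not pass (-0.68 ± 0.33, adjusted p = 0.152), but was lower with the replicate block (-0.60 ± 0.15, adjusted p = 0.00258). LUM, another matrix proteoglycan, had 1.42, 1.5 and 0.57 TPM on day 2 and 1.36, 0.74 and 2.16 TPM on day 1. The part of other cell types in the changes given here was not tested.

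Adhesion genes changed in both directions. Of 25 genes of the epithelial to mesenchymal switch, 25 were tested. Among them 5 were higher and 5 lower (median -0.05), against 12.4% and 13.1% of all genes (median -0.03). EPCAM, an epithelial adhesion molecule, fell, with 135, 145 and 149.8 TPM on day 2 and 395, 409 and 461 TPM on day 1 (-1.58 ± 0.17, adjusted p = 2.73e-06). The tight junction genes CLDN4 (167, 177 and 186 TPM on day 2 and 14.3, 7.95 and 6.88 TPM on day 1; 4.26 ± 0.18, adjusted p = 1.13e-10) and CLDN3 (14.8, 26.9 and 10.4 TPM on day 2 and 2.81, 0.8 and 0.33 TPM on day 1; 3.68 ± 0.49, adjusted p = 3.02e-05) rose. CDH3, P-cadherin, rose as well (1.74 ± 0.30, adjusted p = 0.000447), while CDH2, N-cadherin, fell, with 286, 217 and 202 TPM on day 2 and 513, 381 and 352 TPM on day 1 (-0.83 ± 0.13, adjusted p = 0.000216). CDH1, E-cadherin, had 87.4, 57.9 and 50.9 TPM on day 2 and 147, 72.8 and 66.6 TPM on day 1; it did not pass (-0.54 ± 0.21, adjusted p = 0.0659) but was lower with the replicate block (-0.52 ± 0.11, adjusted p = 0.000901) and without day 2 replicate 1 (0.0291), day 1 replicate 2 (0.0404) or day 1 replicate 3 (0.0302). PDGFRA, a receptor of early mesoderm, fell, with 11.6, 8.97 and 11.2 TPM on day 2, against 95.6, 69.2 and 73.2 TPM on day 1 (-2.91 ± 0.18, adjusted p = 7.6e-09). SNAI1, which represses E-cadherin, had 77.4, 52.6 and 49.2 TPM on day 2 and 84.1, 57.5 and 43.1 TPM on day 1, which overlapped (-0.05 ± 0.18, adjusted p = 0.882). Without replicate 1 of every day, 9 of these genes were higher.

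Of 27 integrin, laminin and basement membrane genes, 27 were tested; 8 were higher and 9 lower (median 0.19). ITGA6, a laminin receptor subunit, had 124, 90.8 and 104 TPM on day 2, against 12.7, 8.27 and 7.95 TPM on day 1 (3.46 ± 0.15, adjusted p = 1.51e-10). ITGB5, a subunit of a vitronectin receptor, had 12.4, 8.02 and 9.79 TPM on day 2, against 81.4, 49.4 and 44.9 TPM on day 1 (-2.53 ± 0.18, adjusted p = 2.27e-08). The laminin chain LAMA4 also fell (-2.08 ± 0.32, adjusted p = 0.000134), as did the low gene ITGB3 (-1.55 ± 0.40, adjusted p = 0.00896), which did not pass in the fit on 6 libraries (0.0844). FN1, fibronectin, had 244, 137 and 126 TPM on day 2 and 193, 81.9 and 66.8 TPM on day 1; it did not pass (0.59 ± 0.28, adjusted p = 0.142) but was higher with the replicate block (0.64 ± 0.12, adjusted p = 0.000214). The count of higher genes on the basement membrane list was 13 without day 1 replicate 1 or replicate 1 of every day, and that of lower genes 5 without day 2 replicate 2 and 4 in the fit on 6 libraries. Of 16 fibroblast and matrix genes, 15 were tested. Among them 2 were higher and 2 lower, near the shares of all genes (12.4% and 13.1%). Those higher were COL5A2 (0.60 ± 0.18, adjusted p = 0.0199, and 0.0961 without day 2 replicate 3) and PDGFRB (2.24 ± 0.55, adjusted p = 0.00653). Those lower were COL6A2 (-1.70 ± 0.20, adjusted p = 7.78e-06) and DCN. COL5A2 did not pass with limma on log2(TPM + 1) (0.0869) or log2(TPM + 0.1) (0.0757).

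Genes of glucose use rose together. Of 22 glycolysis and lactate genes, 22 were tested; 17 were higher and none lower (median 0.76), against 12.4% of all genes called higher. LDHA, which turns pyruvate into lactate, had 3942, 5099 and 3961 TPM on day 2, against 982, 1198 and 1031 TPM on day 1 (1.96 ± 0.23, adjusted p = 7.89e-06). PDK1, which keeps pyruvate out of the mitochondria, had 255, 259 and 176 TPM on day 2, against 60.9, 53.5 and 32.8 TPM on day 1 (2.26 ± 0.19, adjusted p = 2.38e-07). SLC16A3, a lactate exporter, had 37.4, 23.2 and 20.5 TPM on day 2, against 7.22, 3.22 and 3.11 TPM on day 1 (2.56 ± 0.32, adjusted p = 1.48e-05). For these 3 genes every day 2 library lay above every day 1 library, and 34.4% of all genes tested had no overlap in either direction. PGK1, a core enzyme of the pathway, rose less (1.29 ± 0.18, adjusted p = 6.02e-05). Of the 5 genes that did not pass, SLC2A3, a glucose transporter, had 1735, 1432 and 1140.0 TPM on day 2 and 2026, 1675 and 1478 TPM on day 1. With the replicate block SLC2A3 was lower (-0.29 ± 0.09, adjusted p = 0.0202) and ENO1 higher (0.34 ± 0.09, adjusted p = 0.00499); ENO1 also passed without day 2 replicate 1 (0.0495) and with no scaling beyond library size (0.0173). LDHA averaged 388 ± 128 TPM on day 0, 1071 ± 113 on day 1, 4334 ± 663 on day 2 and 457 ± 52.7 on day 3 (mean ± SD, n = 3 each).

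Immediate early and stress genes leaned the same way: of 18 listed and tested, 10 were higher and 1 lower (median 1.15). The number lower was 2 without day 2 replicate 3 or day 1 replicate 1, and 3 with limma on TPM. IER3, an early response gene, had 19.4, 14.3 and 13.7 TPM on day 2, against 0.86, 0.23 and 1.01 TPM on day 1 (4.37 ± 0.36, adjusted p = 1.49e-07). GADD45B, a stress sensor, had 4.59, 6.55 and 7.12 TPM on day 2, against 0.56, 0.46 and 0.13 TPM on day 1 (3.99 ± 0.39, adjusted p = 1.13e-06). EGR2 was low, with 0.64, 0.51 and 0.47 TPM on day 2 and 0.05, 0 and 0.13 TPM on day 1 (2.97 ± 0.72, adjusted p = 0.00577), and did not pass with limma on log2(TPM + 1) (0.115). FOS was the gene called lower, with 9.56, 2.29 and 5.15 TPM on day 2, against 31.8, 16.2 and 23.8 TPM on day 1 (-2.11 ± 0.35, adjusted p = 0.000253), while its partner JUN rose (1.77 ± 0.22, adjusted p = 1.91e-05).

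Of 20 cholesterol synthesis genes, 19 were tested; 8 were higher and none lower (median 0.37), 5 of them in the fit on 6 libraries. HMGCS1, at the start of the pathway, had 1040.0, 1208 and 889 TPM on day 2, against 435, 551 and 533 TPM on day 1 (0.99 ± 0.16, adjusted p = 0.000217). PMVK (1.09 ± 0.24, adjusted p = 0.00252) and the sterol sensor INSIG1 (0.90 ± 0.13, adjusted p = 5.2e-05) rose by a similar size. Of 24 cell cycle genes tested, CDK1 was higher (157, 191 and 179.9 TPM on day 2 and 70.5, 112 and 117 TPM on day 1; 0.76 ± 0.21, adjusted p = 0.0115) and CCNE1 lower (31.8, 33.1 and 33.9 TPM on day 2 and 49.1, 56.1 and 48.6 TPM on day 1; -0.65 ± 0.16, adjusted p = 0.00628), a share under that of all genes. That order turned round in other fits. With the replicate block, where 4390 of 13059 genes passed, 5 cell cycle genes were higher and 5 lower, a share above that of all genes. The count was also 5 higher and 5 lower without replicate 1 of every day (3932 genes passed), and 4 higher and 4 lower without day 1 replicate 1 (3800 passed), both again above the share of all genes.

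**Figure D5:**
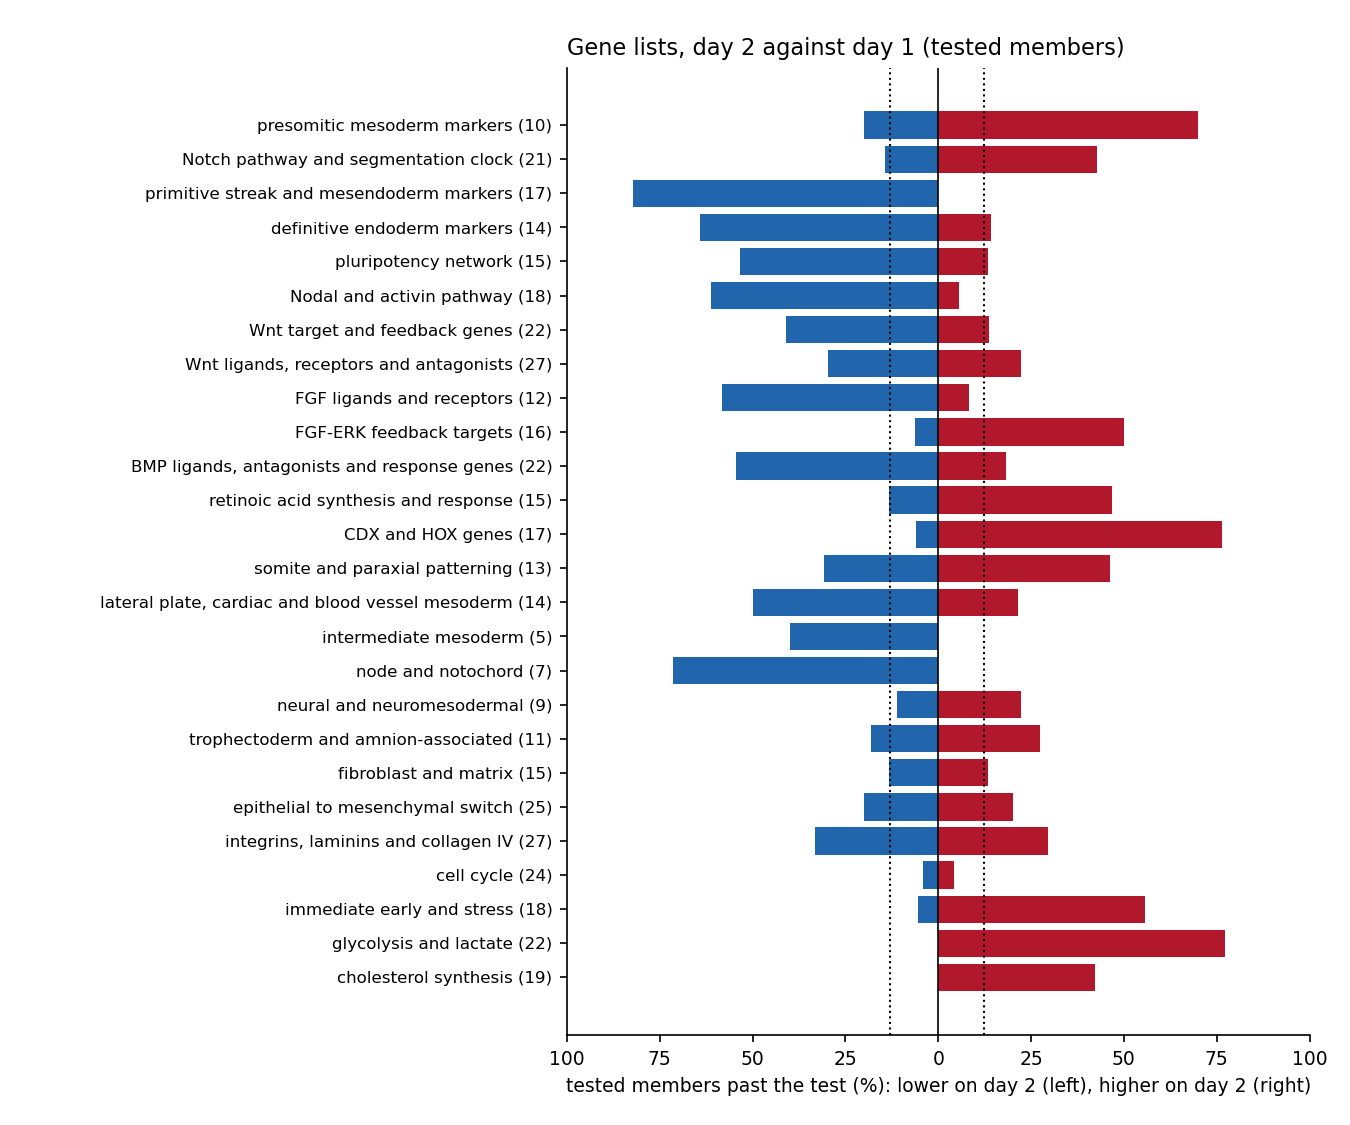
Percent of the tested members of each gene list that passed the test as higher on day 2 (red, to the right) or lower on day 2 (blue, to the left), with the number of tested members in brackets; dotted lines mark the share of all genes tested, 12.4% higher and 13.1% lower. Glycolysis, CDX and HOX, and PSM marker lists extend farthest to the right, and the streak, node, endoderm and Nodal lists farthest to the left.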

How the data were processed

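Total RNA of the 12 clone 8 libraries of days 0 to 3 was extracted with a column kit (RNeasy Plus Mini) and made into libraries by ligation-mediated sequencing, per the labels' protocols. The submitters' processing notes name bcl2fastq, Bowtie 1.2.3, RSEM 1.2.3 and Sscrofa11.1. The authors deposited RSEM expected counts per gene (estimated counts, which need not be whole), and a matching table of TPM. No source used here says whether counting used strand. Reads of overlapping and antisense genes cannot be told apart, and genes with near-identical copies are uncertain.

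Expected counts were rounded (mean shift 0.0162%), filtered with filterByExpr (minimum count 10) and fitted in edgeR 4.0.16 (R 4.3.3) with TMM scaling, 1 mean per day, 12 libraries and 8 residual degrees of freedom; quasi-likelihood p-values were Benjamini-Hochberg adjusted over 13059 genes. The SE is the log2 fold change divided by the square root of F. The fit was checked on simulated counts with known fold changes and no replicate effect, so this check does not bear on replicate 1. The deposited TPM served for levels and for limma 3.58.1 on log2(TPM + 1) and log2(TPM + 0.1); DESeq2 1.42.0 was another alternative. Genes absent from a group were set at a floor of 3 counts over the group, and genes with 1 to 3 counts got a 95% exact interval; both cover counting error only. Depths of 5073491 to 8490476 counts per library limit what low genes can show.

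The 26 gene lists (485 genes, of which 14 were not analysed here and 395 were tested), the markers and the comparison were chosen with earlier results of these data known. The text names the PSM and cell type markers, per list the 3 called members with the largest fold change in the leading direction and 1 in the other, and the 10 largest changes at each end with at least 10 TPM and libraries that do not overlap: 117 genes, apart from others that the rule gives and that are not reported here. A further 61, and ETV2, were named after their values had been seen. Of the gene symbols, 20618 matched RefSeq (Sscrofa11.1), from which the coordinates come.

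Libraries of all days carry replicate numbers. Deviations from the day means were correlated between the libraries of day 2 and day 1. On log2(CPM + 1), same-numbered libraries gave r = 0.52, 0.18 and 0.21, each over 0.1. On the same measure the crossed pairs of replicates 2 and 3 gave 0.23 and 0.15, so only replicate 1 was set apart. With a prior count of 1, same-numbered libraries gave 0.35, 0.071 and 0.12. By the limit of 0.1 on log2(CPM + 1) the numbers were taken to pair the libraries, yet the main fit did not use them. The fit with the replicate block is given where it changes a call.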

Additional observations from a re-analysis of the deposited data

How the results depend on the processing

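The number of genes past the test was 2165 in the fit on 6 libraries (1025 lower), where fewer genes (11707) and libraries entered, 1053 in the fit on all 21 libraries of clone 8 (562 higher and 491 lower), and 726 when a change of at least 2-fold was itself tested (384 higher and 342 lower). Of the listed genes, 220 passed; 103 (58 higher and 45 lower) passed with 21 libraries and 117 (59 higher and 58 lower) in the 2-fold test. The cause of the loss with 21 libraries was not tested. RLE size factors gave 3332 genes, no filter 3312, DESeq2 3666, limma 3084 and 3137, and no scaling beyond library size 3231, of which 56.6% were higher, against 48.5%. With the replicate block, 4390 genes passed (2054 higher and 2336 lower), 3317 of them among the 3329, and the calls it changed among the named genes are given beside them; it changed no other call of a named gene. Leaving out 1 library gave 2531 to 3800 genes, and leaving out replicate 1 of every day, an alternative chosen after seeing the data, gave 3932, 2933 of them shared.

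Of the named genes other than ETV2, 55 of 171 lost their call with 21 libraries, 36 in the 2-fold test, 7 of 161 with 6 libraries and 4 to 10 without 1 library. None that had passed changed sign. The PSM and cell type markers past the test for day 2 against day 1 were 7 PSM genes and 3 others that were higher, and 13 that were lower. Of these, 17 passed for day 3 against day 2 and 17 for day 1 against day 0, and 15 to 18 under every leave-out. Of all genes tested, 51.1% and 39.7% passed in these 2 contrasts. Both share libraries with the contrast by which the markers were picked. Signs changed only in genes that did not pass in either fit. Without single libraries the log2 fold change ran from -0.40 to 0.059 for APLNR, from -0.31 to 0.65 for EVX1, from -0.017 to 0.41 for LEF1, from -0.70 to 0.15 for LUM, from -0.19 to 0.11 for SNAI1 (0.021 with no scaling beyond library size) and from -0.072 to 0.98 for SOX2.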

Other observations

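The glycolysis genes that were higher on day 2 include several that low oxygen is known to switch on, so a further list of 24 genes known to respond to low oxygen was drawn up after these values had been seen, and the list as a whole was not tested. Of its 24 genes tested, 15 were higher on day 2 and 3 lower, with a median log2 fold change of 1.01, against 12.4% and 13.1% of all genes. The genes that prompted the list had already passed, so its share is no separate result. A role of oxygen was not tested. BNIP3, a mitophagy receptor, had 360.4, 364 and 204 TPM on day 2, against 105, 85.2 and 53.3 TPM on day 1 (1.93 ± 0.26, adjusted p = 4.22e-05, edgeR). FAM162A, a mitochondrial protein, had 601, 691 and 424 TPM on day 2, against 154, 190.3 and 176 TPM on day 1 (1.73 ± 0.20, adjusted p = 8.42e-06). MXI1, a MYC antagonist, had 29.9, 20.8 and 17.1 TPM on day 2, against 3.95, 3.8 and 2.86 TPM on day 1 (2.66 ± 0.22, adjusted p = 1.72e-07). The day 2 libraries of these 3 genes lay above those of day 1, and day 2 replicate 3 was the lowest of its day in each. VEGFA, the vascular growth factor, had 24.1, 19.0 and 7.29 TPM on day 2 and 5.75, 7.21 and 7.8 TPM on day 1, which overlapped (1.75 ± 0.28, adjusted p = 0.000211).

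The 3 genes that were lower were NDRG1, BHLHE40 and HIF1A. NDRG1 had 3.02, 4.13 and 2.13 TPM on day 2 and 11.96, 6.98 and 7.5 TPM on day 1 (-1.52 ± 0.29, adjusted p = 0.00102). BHLHE40 had 41.6, 17.1 and 12.5 TPM on day 2 and 83.4, 57.0 and 40.9 TPM on day 1 (-1.43 ± 0.31, adjusted p = 0.00284). HIF1A, the oxygen-regulated factor itself, which is controlled mostly as a protein, had 277, 234 and 229 TPM on day 2 and 372, 322 and 276 TPM on day 1 (-0.40 ± 0.10, adjusted p = 0.0079), and its call was lost in the fit on 6 libraries (adjusted p = 0.0721).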
